A study of Mus musculus with 16 samples.

Results

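Mast cell proteases and receptors were followed in wound tissue of diabetic and wild type (WT) mice. The 10 genes are Cma1, Mcpt4, Tpsb2, Tpsab1, Cpa3, Mcpt1, Mcpt2 and Mcpt8, which encode granule proteases, and Kit and Fcer1a, which encode receptors. They were chosen by name, and every array probe whose accession mapped to one of these symbols through RefSeq was taken. Of the 10 genes, 9 were measured, by 10 probes, out of 20790 named genes and 39333 probes that were fitted. Tpsab1, a tryptase gene that the RefSeq table lists as a transcribed pseudogene, had no probe under this rule and has no value here.

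Mast cells are tissue-resident immune cells that store proteases in granules and release them when their receptors are engaged. In the mouse, mast cells of connective tissue such as skin are known for the chymases encoded by Cma1 and Mcpt4, the tryptase encoded by Tpsb2 and the carboxypeptidase encoded by Cpa3, whereas Mcpt1 and Mcpt2 are known from mast cells of mucosal surfaces. Mcpt8 encodes a protease of basophils, which are circulating relatives of mast cells. Kit is the receptor for stem cell factor and is also carried by melanocytes, and Fcer1a encodes the chain of the high-affinity receptor that binds IgE.

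The study asked how diabetes and topical estrogen change gene expression in full-thickness wounds of the back skin. The 16 one-colour arrays held 8 groups with 2 arrays each, namely WT, db/db, db/db + vehicle and db/db + estrogen on the days labelled 7 and 14 after wounding. The db/db animals were female C57BLKS/J Iar-+Leprdb/+Leprdb mice aged 10 weeks, which lack a working leptin receptor, and the WT animals were female C57BL/6J mice aged 10 to 12 weeks. The db/db + estrogen wounds received estradiol benzoate in sesame oil each day at 0.75 µg per g of body weight, the db/db + vehicle wounds received sesame oil alone, and the other groups received neither. The genotype and the background strain differ together between WT and db/db, so that their parts in any difference cannot be told apart. Each sample was a homogenate of the wound with skin around it, in which fewer cells of a type and less RNA per cell cannot be told apart. The sources do not say whether the 2 arrays of a group came from separate animals, and p-values then measure only the spread between these arrays.

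A level is the log2 of the background-subtracted signal of a probe minus the log2 of the 75th percentile of that array, so that 0 is the brightness of the 75th percentile and a difference of 1 is a doubling. Levels are compared between arrays for the same probe and never between probes. A gene with several probes is read through its brighter probe. A difference was called where the unadjusted p of the limma fit was under 0.05 and the fold change was over 2, and the Benjamini-Hochberg adjusted p over all probes tested is given beside it. A probe was tested in a comparison where both arrays of at least 1 group were well above background by the mark in the scanner files. The arrays had 70.1% to 79.0% of their probes well above background and 0 saturated probes, and their 75th percentile lay between 1091 and 2548 signal units, lowest in WT day 14 replicate 2. Keratin, collagen and muscle genes that mark skin and the muscle under it were well above background on all 16 arrays. The arrays labelled day 7 and day 14 were scanned on slides of their own, so that levels on both days are described without a test. On day 14 no slide held both untreated db/db and WT arrays. Every db/db vs WT difference of that day, for members and other genes, thus coincides with a difference of slide. The labels and the article name the days the other way round, so that arrays labelled day 7 are those the article treats as day 14, and the reverse. Which of them is right cannot be told from the files, and day 7 and day 14 are used here only as the labels give them.

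The stretches of 250 bases before the start of transcription are shown for 5 members, because 3 of them, Cma1, Mcpt4 and Cpa3, had nearly the same course over the arrays and 2, Mcpt1 and Mcpt8, did not. They are from RefSeq on build GRCm38.p6, whereas the array was designed on an older build, and RefSeq sequences matched 7 of the 10 members. Each is written from 5′ to 3′ on the strand of the gene, with the letters GATAA (on either strand, so that TTATC is also marked) and TATAAA (on the strand of the gene) in capitals.
Cma1, chr14:55944676-55944925, minus strand: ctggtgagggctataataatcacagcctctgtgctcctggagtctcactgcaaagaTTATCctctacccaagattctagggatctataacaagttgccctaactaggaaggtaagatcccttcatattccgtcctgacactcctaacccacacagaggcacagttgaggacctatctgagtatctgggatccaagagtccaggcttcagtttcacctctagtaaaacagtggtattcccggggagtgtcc
Mcpt4, chr14:56062311-56062560, minus strand: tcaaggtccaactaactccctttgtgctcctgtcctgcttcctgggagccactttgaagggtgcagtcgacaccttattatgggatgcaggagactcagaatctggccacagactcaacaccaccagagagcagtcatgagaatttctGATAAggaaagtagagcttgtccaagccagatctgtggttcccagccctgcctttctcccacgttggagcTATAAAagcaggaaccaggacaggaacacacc
Mcpt1, chr14:56017714-56017963, plus strand: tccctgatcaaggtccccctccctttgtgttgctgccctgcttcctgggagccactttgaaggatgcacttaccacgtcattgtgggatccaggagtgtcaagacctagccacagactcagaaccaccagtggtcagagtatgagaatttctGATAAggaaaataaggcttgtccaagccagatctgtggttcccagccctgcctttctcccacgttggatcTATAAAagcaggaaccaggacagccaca
Cpa3, chr3:20242182-20242431, minus strand: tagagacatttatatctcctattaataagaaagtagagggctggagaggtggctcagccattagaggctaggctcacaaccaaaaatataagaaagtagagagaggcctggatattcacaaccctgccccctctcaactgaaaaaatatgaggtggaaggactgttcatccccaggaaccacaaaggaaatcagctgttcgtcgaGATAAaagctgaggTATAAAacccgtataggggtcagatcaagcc
Mcpt8, chr14:56085198-56085447, minus strand: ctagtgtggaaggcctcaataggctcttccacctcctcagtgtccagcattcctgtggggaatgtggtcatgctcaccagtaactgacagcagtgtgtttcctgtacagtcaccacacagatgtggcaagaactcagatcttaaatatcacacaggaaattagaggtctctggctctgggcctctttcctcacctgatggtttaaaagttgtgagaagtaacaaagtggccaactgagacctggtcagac
GATAA was found in 5 of the 7 members' windows and in 22.6% of all 32851 windows of the same length, and TATAAA in 4 of the 7 and in 7.59% of all. The windows of Mcpt1 and Mcpt4 were alike at 207 of 246 aligned bases (84.1%), against 139 of 219 (63.5%) for Mcpt4 and Cma1 and 138 of 226 (61.1%) for Mcpt4 and Mcpt8. A match of letters is a description only.

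**Figure D1:**
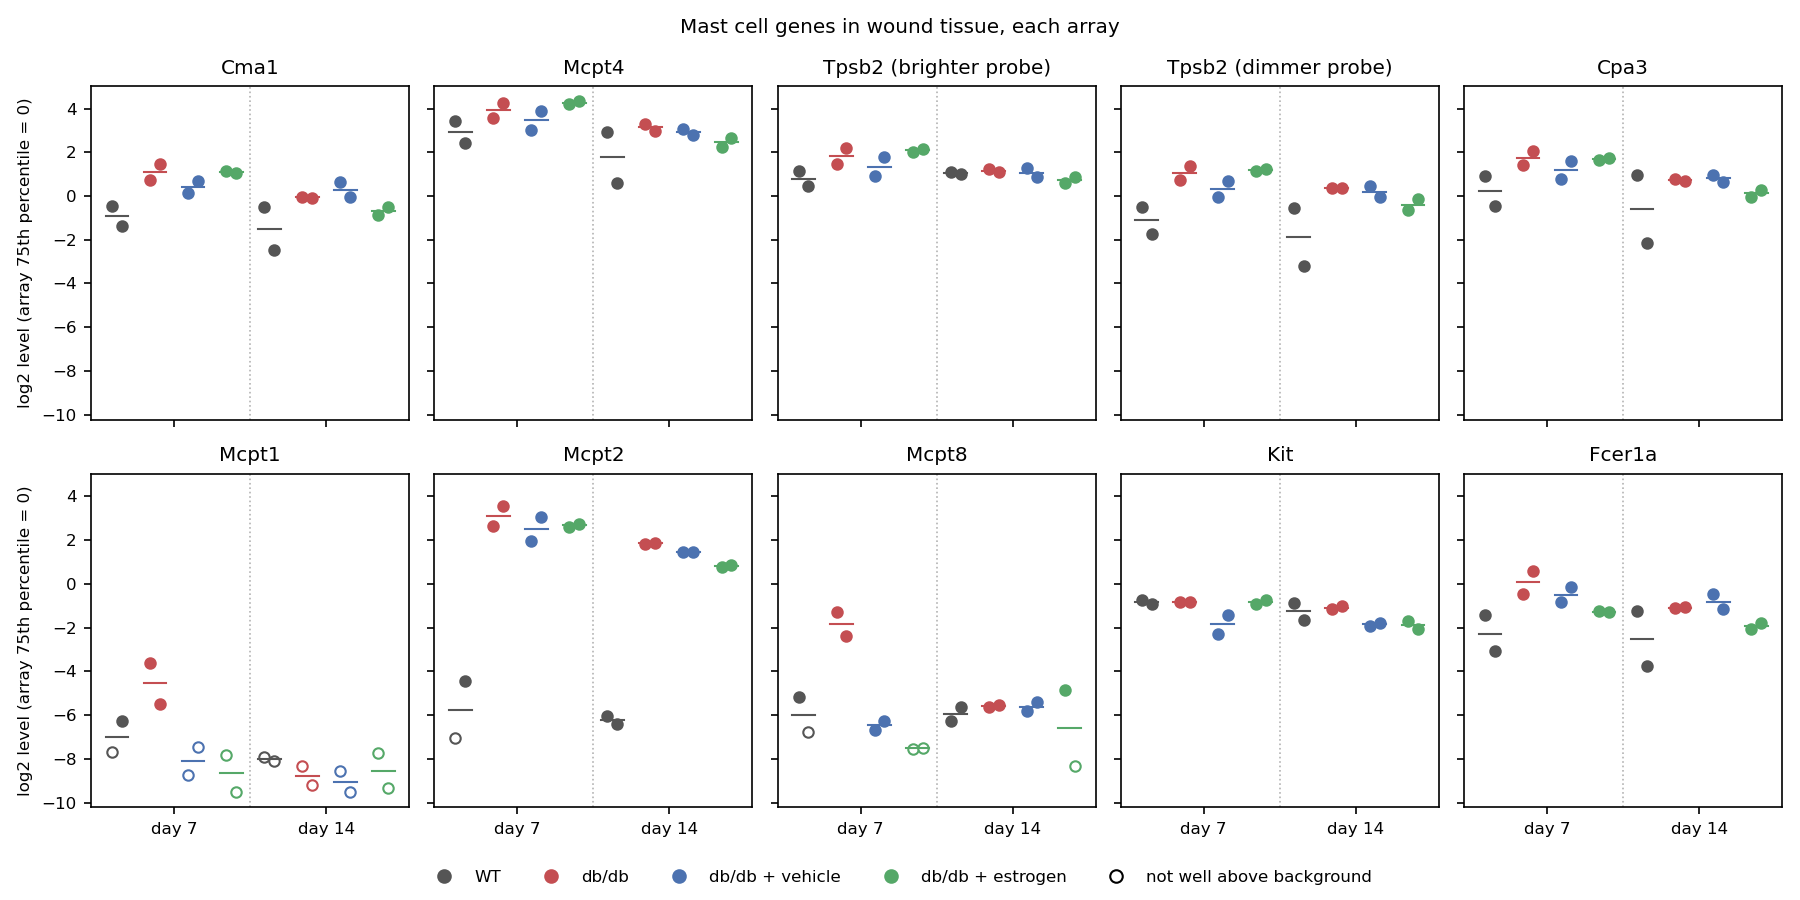
Each point is 1 array, plotted as its log2 level (the 75th percentile of the array is 0) for each of the 10 probes, with WT in grey, db/db in red, db/db + vehicle in blue and db/db + estrogen in green; short lines are group means and open points are not well above background. Mcpt2 lies at or below -4.46 on the 4 WT arrays and at or above 0.76 on the 12 db/db arrays, and Mcpt8 stands highest on the 2 db/db arrays of day 7.

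The comparison of db/db with WT asks what differs between diabetic and WT wounds without treatment. Mcpt2 was higher in db/db wounds by a factor of 469 on day 7 and 268 on day 14, Mcpt8 was 17.9-fold higher on day 7, and Cma1 was 3.97-fold higher on day 7 and 2.68-fold higher on day 14. The day 7 values of Mcpt2 and Mcpt8 each rest on a WT mean that includes 1 array not well above background. After another background correction (normexp with an offset of 50) the log2 fold change was 6.83 and 6.08 for Mcpt2 on the 2 days, in place of 8.87 and 8.07, and 2.32 for Mcpt8 on day 7, in place of 4.16, and all of them were called. On day 7, 6 of the 9 members tested were called, all 6 higher in db/db, namely Mcpt1, Mcpt2, Mcpt8, Cma1, Tpsb2 and Fcer1a. Of all probes tested in that comparison, 14.1% were called in either direction and 5.68% were called higher. After adjustment 3 of the 9 passed (Mcpt2, Mcpt8 and Cma1), against 9.08% of all probes. Mcpt1, Mcpt2 and Mcpt8 were each well above background on only 1 WT array of day 7. They were thus tested only through the db/db arrays, where they were high, and the filter left little room for the other direction. With all 4 arrays required to be well above background, Mcpt1, Mcpt2 and Mcpt8 were not tested. On day 14, 2 of the 8 members tested were called, both higher in db/db, against 18.0% of all probes in either direction and 2.35% higher, and 1 (Mcpt2) passed after adjustment, against 13.6% of all probes. Tpsb2, not called on day 14 through its brighter probe, was called there through its dimmer probe (2.24) and through the mean of both (1.17). The median log2 fold change of the members tested was 1.99 on day 7 and 1.35 on day 14, and that of all probes tested was -0.05 and -0.12.

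Mcpt2 showed the widest separation between WT and db/db wounds among the members. Its level was -7.07 and -4.46 on the 2 WT arrays of day 7, the first of which was not well above background, and -6.02 and -6.40 on those of day 14. It was 2.66 and 3.56 in db/db wounds on day 7 and 1.84 and 1.88 on day 14. It was 1.95 and 3.05 with vehicle and 2.62 and 2.76 with estrogen on day 7, and 1.45 and 1.46 with vehicle and 0.76 and 0.88 with estrogen on day 14. The lowest of the 12 db/db arrays stood 5.22 above the highest of the 4 WT arrays, and this gap was present in untreated and treated wounds alike. The log2 fold change of db/db vs WT was 8.87 ± 0.68 (SE, n = 2 against 2; 95% interval 7.35 to 10.4; limma adjusted p = 0.00014) on day 7 and 8.07 ± 0.68 (95% interval 6.54 to 9.59; limma adjusted p = 0.000176) on day 14. Within slide 1 and slide 2 the day 7 difference was 9.73 and 8.02. On day 14 no slide held both groups, and the fit with slide as a block gave 8.13 (limma adjusted p = 0.0029).

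In order of group means, the Mcpt2 levels ran from db/db on day 7 (3.11) through estrogen (2.69) and vehicle (2.50) on day 7 to db/db (1.86), vehicle (1.45) and estrogen (0.82) on day 14, and then to WT on day 7 (-5.76) and day 14 (-6.21). Neighbours in this order overlapped among the 3 db/db groups of day 7 and between the 2 WT groups, and the arrays of the other neighbours did not. Among 23682 probes of other named genes that were well above background on at least 2 arrays, the 5 genes whose centred levels were most like those of Mcpt2 over the 16 arrays were Syt10, a synaptotagmin (root mean square difference 1.1), the RIKEN gene 6330403K07Rik (1.31), Naip6, of the inflammasome sensor family (1.36), the interferon-inducible Xaf1 (1.41) and the choline transporter Slc5a7 (1.41). The median difference over these probes was 3.64. Of the other members, the dimmer probe of Tpsb2 was nearest to Mcpt2 with 2.78, and 62 probes of other genes lay nearer. The 5 genes named were like Mcpt2 in being dim in WT, with mean levels of -8.13 to -4.14 on the 4 WT arrays and -2.41 to 2.69 on the 12 db/db arrays, each gene being higher on the db/db arrays. They were picked by their course over these same arrays, so that this is a description only.

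The proteases known from connective tissue mast cells differed less than Mcpt2, and the 2 WT arrays of a day stood apart from each other. Cma1, the mouse alpha chymase, was at -0.44 and -1.35 in WT and 0.73 and 1.45 in db/db wounds on day 7, without overlap. On day 14 it was at -0.52 and -2.45 in WT and -0.06 and -0.07 in db/db wounds. This gave a log2 fold change of 1.99 ± 0.56 on day 7 (limma adjusted p = 0.0437) and 1.42 ± 0.56 on day 14 (limma adjusted p = 0.102). With slide as a block these had an adjusted p of 0.0823 and 0.424, and the day 14 difference (1.26) was no longer called. Within the slides of day 7 the difference was 1.17 and 2.81.

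Mcpt4, another chymase, was at 3.43 and 2.42 in WT and 3.59 and 4.27 in db/db wounds on day 7, and at 2.94 and 0.60 in WT and 3.31 and 2.96 in db/db wounds on day 14. Its log2 fold change was 1.01 ± 0.65 (95% interval -0.44 to 2.45) and 1.36 ± 0.65 (95% interval -0.08 to 2.81), and neither was called. Cpa3 was at 0.92 and -0.47 in WT and 1.42 and 2.06 in db/db wounds on day 7, and at 0.96 and -2.15 in WT and 0.77 and 0.69 in db/db wounds on day 14. WT day 14 replicate 1 thus lay above both db/db arrays for Cpa3, whereas replicate 2 lay far below them. Its log2 fold change was 1.52 ± 0.82 and 1.33 ± 0.82, and neither was called.

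The tryptase Tpsb2 had 2 probes that disagreed. Its brighter probe was at 1.16 and 0.44 in WT and 1.47 and 2.21 in db/db wounds on day 7, and at 1.11 and 1.03 in WT and 1.24 and 1.08 in db/db wounds on day 14. Its dimmer probe was at -0.51 and -1.72 in WT and 0.74 and 1.39 in db/db wounds on day 7, and at -0.55 and -3.20 in WT and 0.35 and 0.39 in db/db wounds on day 14. In WT day 14 replicate 2 the dimmer probe was thus low, as Cpa3 and Mcpt4 were, and the brighter probe was not. On day 7 the log2 fold change was 1.04 ± 0.34 by the brighter and 2.18 ± 0.72 by the dimmer probe (limma adjusted p = 0.0728 for each), and on day 14 it was 0.09 ± 0.34 and 2.24 ± 0.72 (limma adjusted p = 0.878 and 0.0533). Whether either probe also binds transcripts of related tryptase genes was not tested.

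Fcer1a was at -1.44 and -3.09 in WT and -0.46 and 0.61 in db/db wounds on day 7, and at -1.23 and -3.77 in WT and -1.09 and -1.06 in db/db wounds on day 14. The groups did not overlap on either day, but on day 14 replicate 1 of WT stood close to the db/db arrays. The difference was 2.34 ± 0.76 on the log2 scale on day 7 (limma adjusted p = 0.0708) and 1.43 ± 0.76 on day 14 (limma adjusted p = 0.215), and within the slides of day 7 it was 0.98 and 3.71. Kit was at -0.74 and -0.93 in WT and -0.85 and -0.82 in db/db wounds on day 7, and at -0.88 and -1.63 in WT and -1.15 and -1.01 in db/db wounds on day 14. These overlapped on both days, and the 95% interval of the log2 fold change was -0.67 to 0.66 on day 7 and -0.50 to 0.83 on day 14.

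**Figure D2:**
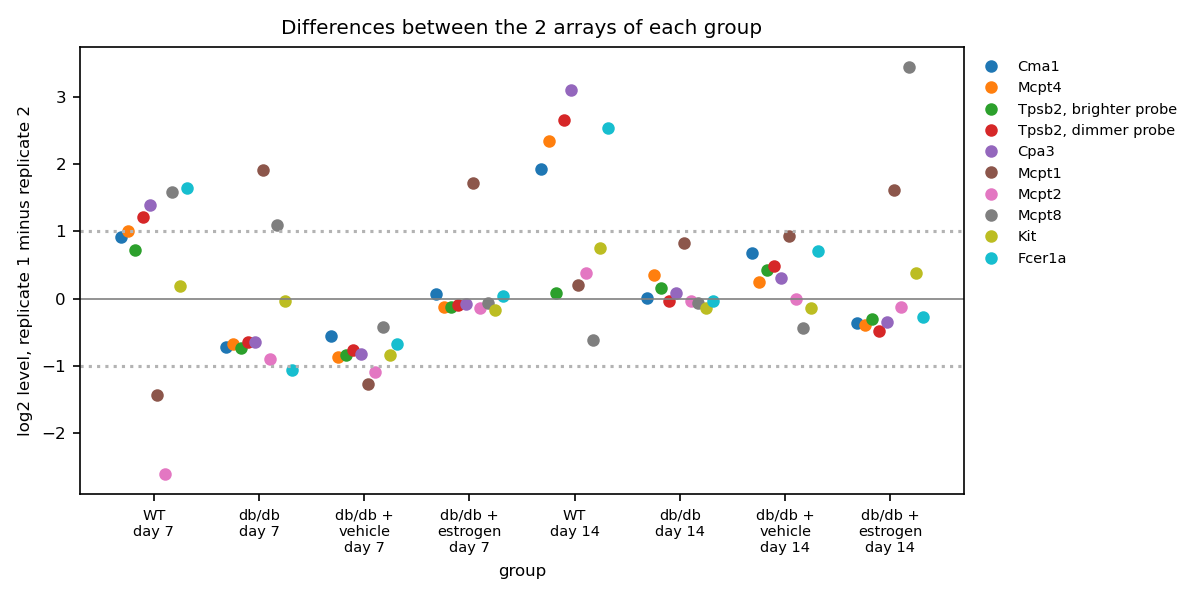
For each group on the horizontal axis, points give the log2 level of replicate 1 minus that of replicate 2 for each of the 10 probes; dotted lines mark a 2-fold gap. In WT day 14 the points of Cma1, Mcpt4, Cpa3, Fcer1a and the dimmer Tpsb2 probe lie between 1.93 and 3.11, and in db/db day 14 all 10 lie within 2-fold.

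In both WT groups replicate 2 was the lower of the pair for the genes of connective tissue mast cells. On day 14 the gap between the WT arrays was 3.11 for Cpa3, 2.65 for the dimmer Tpsb2 probe, 2.54 for Fcer1a, 2.34 for Mcpt4 and 1.93 for Cma1. On day 7 it was 1.39, 1.2, 1.65, 1.00 and 0.91 for the same probes. Of the 10 member probes, 5 differed by over 2-fold between the WT arrays of day 14 and 7 between those of day 7, whereas 15.4% and 11.5% of all probes did so. In untreated db/db wounds this number of member probes was 3 on day 7 and 0 on day 14.

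The count of members called therefore changed with the WT array left out. Without WT day 14 replicate 1, 5 members were called on day 14, against 23.2% of all probes in either direction, namely Mcpt2, Cma1, Mcpt4 (2.54), Cpa3 (2.88) and Fcer1a (2.69), and without WT day 14 replicate 2 only Mcpt2 was called, against 13.3% of all probes, with Cma1 at 0.46. On day 7, Cpa3 was called (2.21) without WT replicate 1, and Fcer1a (1.52) and Tpsb2 (0.68) were no longer called without WT replicate 2. Without db/db replicate 2 of day 7, Fcer1a (1.81) and Tpsb2 (0.67) were not called either, Mcpt1 was not called without replicate 1 of WT (1.70) or of db/db (1.47), and on day 14 Cma1 was not called without either db/db array (1.41 and 1.43). Mcpt2 was called with each of the 4 arrays left out in turn on both days, with a log2 fold change of 7.57 (without WT replicate 1) to 10.18 (without WT replicate 2) on day 7 and 7.88 to 8.26 on day 14.

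Cpa3, Mcpt4, Cma1 and the dimmer Tpsb2 probe followed nearly the same course over the 16 arrays, with a root mean square difference of centred levels from Cpa3 of 0.24 for Mcpt4, 0.30 for Cma1, 0.35 for the dimmer Tpsb2 probe and 0.47 for Fcer1a. For Kit it was 0.93, with 3623 probes of other genes nearer, and for the brighter Tpsb2 probe 0.72, with 154 nearer. The 5 nearest genes outside the members were the protease pseudogene Mcpt-ps1 (0.24), the chymase gene Cma2 (0.35), Gata1, a transcription factor of blood lineages that include mast cells (0.38), the platelet glycoprotein gene Gp1ba (0.42) and the serotonin transporter Slc6a4 (0.46). The median over all 23682 probes was 1.07. These likenesses are descriptions over the same 16 arrays, and both WT replicate 2 arrays enter all of them.

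Mcpt1, the mucosal chymase, was at the edge of detection. It was well above background on 3 of the 16 arrays, at -3.60 and -5.51 in db/db wounds and -6.26 in WT replicate 2 on day 7. The other WT array of day 7 was at -7.70. On the arrays of day 14 it lay between -9.51 and -7.74, none of them well above background, and it was not tested there. The log2 fold change of db/db vs WT on day 7 was 2.43 ± 0.86 (limma adjusted p = 0.0921), and within the slides it was 4.10 and 0.75. With the normexp correction it was 0.42 and was not called.

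Mcpt8, the basophil protease, was bright in untreated db/db wounds of day 7 and dim elsewhere. It was at -1.28 and -2.37 in db/db wounds on day 7, against -5.19 and -6.78 in WT (the second not well above background), -6.68 and -6.25 with vehicle and -7.55 and -7.49 with estrogen (neither well above background). On day 14 it was at -6.26 and -5.64 in WT, -5.61 and -5.54 in db/db, -5.83 and -5.39 with vehicle and -4.87 and -8.31 with estrogen (the second not well above background). The other 14 arrays thus lay between -8.31 and -4.87, all below the 2 db/db arrays of day 7. The log2 fold change of db/db vs WT was 4.16 ± 0.91 on day 7 (95% interval 2.12 to 6.2; limma adjusted p = 0.0176) and 0.37 ± 0.91 on day 14 (limma adjusted p = 0.803). Within the slides of day 7 it was 3.90 and 4.42. It was called with each of the 4 arrays left out in turn, with a log2 fold change of 3.36 (without WT replicate 2) to 4.96 (without WT replicate 1) and a limma adjusted p of up to 0.0966. The difference between these days was 3.79 ± 1.29 (limma adjusted p = 0.223).

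Markers of basophils and neutrophils moved with Mcpt8 in db/db vs WT on day 7, and other lists went both ways. Of the macrophage genes 3 of 4 were called higher, while 2 of 3 T cell and 5 of 7 melanocyte genes were called lower. This stands against 14.1% of all probes called in either direction. No keratinocyte, fibroblast, endothelium, muscle or adipocyte gene was called. Of the 3 genes in the basophil list other than Mcpt8, 2 were called higher in db/db than WT on day 7, with Il4, a cytokine of basophils and other cells, 5.18-fold and Prss34, a basophil protease, 2.10-fold higher, while Cd200r3 was at -5.14 and -6.03 in WT and -5.24 and -4.13 in db/db wounds. The summed linear level of these 3 genes, relative to the 75th percentile, was 0.0557 to 0.1 in WT and 0.199 to 0.236 in db/db wounds on day 7, and 0.0405 to 0.1 over all groups other than db/db day 7. Of the 6 neutrophil genes, 4 were called higher in the same comparison, among them the granule genes Camp, cathelicidin, 135-fold, and Ltf, lactoferrin, 281-fold. Of all probes tested there, 5.68% were called higher. Ngp, another granule gene of neutrophils, was not well above background on either WT array of day 7. The neutrophil genes S100a8 and S100a9 were not among those 4. The summed level of that list, made up mostly of S100a8 and S100a9, was 296 to 304 in WT and 376 to 429 in db/db wounds. The part of these cells in the Mcpt8 difference was not tested.

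The comparisons with treated wounds ask what topical estrogen and its vehicle changed in db/db wounds. Mcpt8 and Mcpt1 were far lower in both treated groups than in untreated db/db wounds on day 7, Kit was lower with vehicle and not with estrogen on day 7, and no member was called on day 14. The estrogen and vehicle comparisons share the untreated db/db arrays, so that a high value there lowers both. On day 7, 2 of the 9 members tested were called with estrogen, both lower, against 9.92% of all probes in either direction and 4.7% lower, and both passed after adjustment, against 4.82% of all probes. They were Mcpt8 and Mcpt1, neither of them well above background on an estrogen array. Both were thus tested only through the untreated arrays, where they were high, and the filter left little room for the other direction. With all 4 arrays required to be well above background, neither was tested. With vehicle 3 of the 9 were called, all lower, against 4.81% of all probes in either direction and 2.29% lower, and 0 passed after adjustment in limma, against 0.148% of all probes. Of these, Mcpt1 was likewise tested only through the untreated arrays.

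Mcpt8 was at least 42.1-fold lower with estrogen than without treatment on day 7, a bound that takes the lowest signal well above background on each estrogen array as the level there. The fitted log2 fold change was -5.70 ± 0.91 (limma adjusted p = 0.00703), and within the slides it was -6.26 and -5.13. With the normexp correction the log2 fold change was -2.88 with estrogen and -2.88 with vehicle, both called, so that the bound holds only for the correction used in the scanner files. With vehicle, where both arrays were well above background, it was 25.0-fold lower, a log2 fold change of -4.64 ± 0.91 (limma adjusted p = 0.0836), with -5.40 and -3.89 within the slides. Between estrogen and vehicle Mcpt8 was not called, and since neither estrogen array was well above background only a bound can be given there, at least 1.69-fold lower with estrogen (limma adjusted p = 0.552). Mcpt1 was at -7.81 and -9.53 with estrogen and -8.73 and -7.46 with vehicle, none well above background. It was at least 6.35-fold lower with estrogen (limma adjusted p = 0.0232) and at least 6.49-fold lower with vehicle (limma adjusted p = 0.132), and after the normexp correction the estrogen difference (-0.91) was not called while the vehicle difference (-1.1) was. Leaving out 1 array moved the fitted log2 fold change between -5.07 (without db/db replicate 2) and -3.16 (without db/db replicate 1) for estrogen and between -4.5 and -2.59 for vehicle without the same arrays, and each was called.

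Neutrophil and basophil markers were lower in the same comparisons, while 0 of the 4 macrophage genes were called in either on day 7. With estrogen on day 7, all 6 neutrophil genes and 2 of the 3 basophil genes other than Mcpt8 were called lower than in db/db, with Prss34 3.94-fold and Il4 4.53-fold lower and S100a8, a calprotectin subunit, 45.0-fold lower. Of all probes, 4.7% were called lower there. The summed level of the neutrophil list was 6.18 to 24.9 with estrogen, 402 to 422 with vehicle and 376 to 429 without treatment, and that of the 3 basophil genes was 0.0716 to 0.0735, 0.0665 to 0.0742 and 0.199 to 0.236. S100a8 and S100a9, the brightest of the 6 neutrophil genes, made up most of the neutrophil sum, which thus says little about the granule genes. With vehicle 4 of the 6 neutrophil genes and 2 of the 3 basophil genes were called lower, against 2.29% of all probes. There Ngp was at -6.11 and -4.21 and Ltf at -5.51 and -3.28. Without treatment Ngp was at 2.67 and 1.09 and Ltf at 3.25 and 1.76. Their part in the Mcpt8 difference was not tested.

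None of the proteases of connective tissue mast cells was called with estrogen or vehicle against untreated db/db wounds on day 7. Of all probes, 9.92% and 4.81% were called there. Cma1 was at 1.13 and 1.06 with estrogen and 0.15 and 0.71 with vehicle, Mcpt4 at 4.21 and 4.34 and at 3.03 and 3.90, and Cpa3 at 1.67 and 1.75 and at 0.77 and 1.60. The estrogen arrays lay within the range of the untreated arrays for Cma1 and Cpa3, and the vehicle arrays had the lowest array for each of the 3 genes among the db/db groups of day 7. The 95% interval of the log2 fold change of estrogen against db/db was -1.24 to 1.25 for Cma1, -1.10 to 1.79 for Mcpt4 and -1.84 to 1.79 for Cpa3, which leaves room for changes of over 2-fold either way. The brighter Tpsb2 probe was at 2.03 and 2.15 with estrogen and 0.93 and 1.77 with vehicle. Fcer1a was at -1.25 and -1.29 with estrogen and -0.83 and -0.15 with vehicle, and its log2 fold change with estrogen was -1.34 ± 0.76 (limma adjusted p = 0.381).

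Kit stood lower with vehicle on day 7. It was at -2.27 and -1.43 with vehicle and -0.92 and -0.75 with estrogen, so that the vehicle arrays lay below the 2 estrogen, 2 db/db and 2 WT arrays of that day. The log2 fold change was -1.01 ± 0.30 for vehicle vs db/db (limma adjusted p = 0.194) and 1.02 ± 0.30 for estrogen vs vehicle (limma adjusted p = 0.093), while for estrogen vs db/db the 95% interval was -0.66 to 0.67. Within the slides the difference of vehicle from db/db was -1.42 and -0.61. Vehicle replicate 1 carried much of it, since without that array the log2 fold change was -0.59 against db/db and 0.60 against estrogen, and neither was called. Without db/db replicate 2 (-1.0) or without estrogen replicate 2 (0.93) the call was lost as well, and so it was with the normexp correction (-0.99 and 0.94). Kit was the only 1 of the 8 members tested that was called between estrogen and vehicle on day 7, against 8.98% of all probes in either direction and 4.66% higher, and it did not pass after adjustment, against 2.56% of all probes. Without vehicle replicate 2, Tpsb2 was called there too (1.16).

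Melanocyte genes moved in the same comparison. Of the 7 melanocyte genes, 5 were called higher with estrogen than with vehicle on day 7 and 0 of the 7 passed after adjustment in limma, with Mlana, a melanosome protein, 6.65-fold and Tyrp1, a pigment enzyme, 7.70-fold higher. Of all probes, 8.98% were called in that comparison, 4.66% higher. Mlana was at -4.54 and -1.83 with vehicle, -0.71 and -0.20 with estrogen and 0.10 and -0.08 without treatment. The vehicle arrays also stood apart for Tyrp1 (-6.09 and -2.67), Dct (-3.17 and 0.34) and Pmel (-4.46 and -1.75), but not for Sox10 (-3.09 and -3.1). Vehicle replicate 1, the lower array there, also carried much of the Kit difference. For vehicle vs db/db on day 7, Mlana was the only 1 of the 6 melanocyte genes tested that was called, lower. There the log2 fold change was -0.10 for Dct, -0.22 for Tyr, -0.43 for Tyrp1, 0.41 for Pmel and -0.16 for Sox10. The summed level of the list was 0.366 to 2.18 with vehicle, 3.27 to 5.16 with estrogen, 1.75 to 1.78 in db/db and 7.76 to 11.3 in WT wounds, while Kit was level between db/db and WT. The part of melanocytes in the Kit difference was not tested.

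On day 14, 0 of the 8 members tested were called with estrogen (3.91% of all probes), 0 with vehicle (7.52%) and 0 between estrogen and vehicle (0.979%), while 1, 1 and 0 had an unadjusted limma p under 0.05. Kit was that member in both, at -1.70 and -2.08 with estrogen and -1.92 and -1.78 with vehicle against -1.15 and -1.01 without treatment. Its log2 fold change was -0.80 ± 0.30 (limma adjusted p = 0.451) and -0.77 ± 0.30 (limma adjusted p = 0.23), short of a 2-fold change. Mcpt2 did not overlap between the 3 db/db groups of day 14, with estrogen 2.05-fold below db/db, but with a log2 fold change of -1.04 ± 0.68 (limma adjusted p = 0.755). In a fit of those 4 arrays alone, which does not share the spread of the WT arrays, Mcpt2 was called. Mcpt8 was 2.02-fold lower with estrogen and rested on arrays that differed 10.9-fold, and without estrogen replicate 1 it was called, with a log2 fold change of -2.74 against db/db and -2.70 against vehicle.

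**Figure D3:**
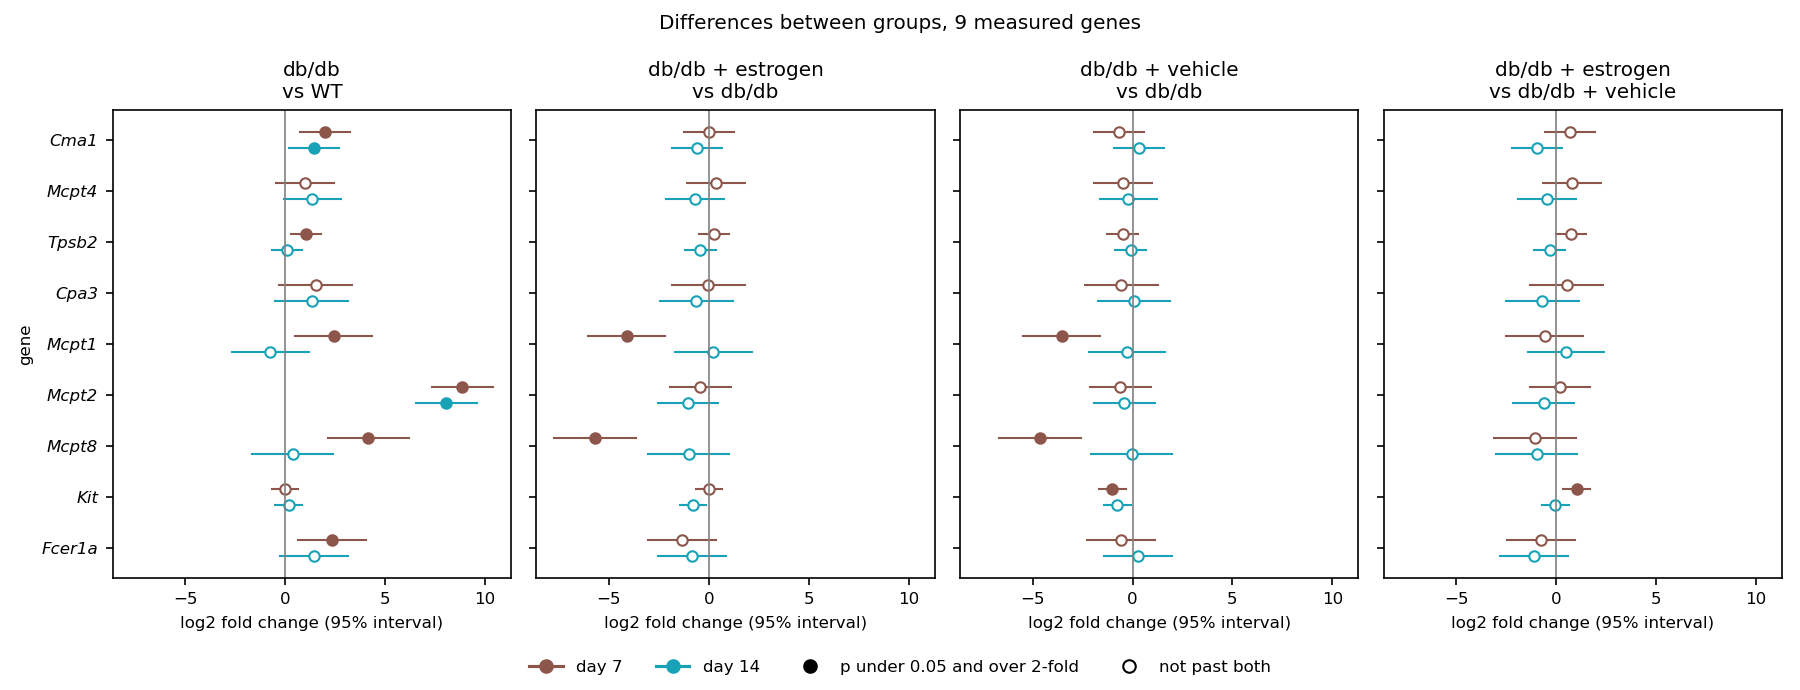
Log2 fold changes of the 9 measured genes in the 4 comparisons, with lines for 95% intervals, brown for day 7 and blue for day 14; filled points have an unadjusted limma p under 0.05 and a fold change over 2. Mcpt2 stands near 8.87 and 8.07 in db/db vs WT, and Mcpt8 and Mcpt1 stand left of 0 in both treated groups on day 7.

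Differences between the days were tested in the same fit. Mcpt8 was the member called for db/db vs WT (8.85% of all probes called), for estrogen vs db/db (5.75%) and for vehicle vs db/db (1.96%), and Kit was the member called for estrogen vs vehicle (6.65%), and 0 of them passed after adjustment in limma. For Mcpt2 the difference of db/db vs WT between the days was 0.81 ± 0.96 (95% interval -1.35 to 2.96), which was not called. The interval leaves room for a difference of several-fold in either direction.

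Genes beside the proteases were taken from a fixed list of 22 other mast cell genes. On day 7, 10 of the 20 tested were called higher in db/db than in WT and 1 lower, with 7 past adjustment and a median log2 fold change of 0.97. Of all probes, 14.1% were called in either direction, 5.68% higher, and 9.08% passed adjustment. Those called higher included Hdc, the enzyme that makes histamine (13.3-fold), Srgn, the core protein of granule proteoglycan (6.49-fold), and Tph1, an enzyme of serotonin synthesis (7.03-fold). Rab27b, a GTPase of granule release, was the gene called lower (2.26-fold). Among those not called, the log2 fold change was 0.17 for Mrgprb1, 0.38 for Mrgprb2, 0.30 for Tpsg1, 0.20 for Slc18a2 and 0.14 for Gata2. With estrogen 6 of the 20 were called lower and 0 higher, among them Hdc (8.19-fold), Srgn (6.44-fold) and Il1rl1, the receptor for interleukin 33 (12.9-fold), with 4 past adjustment. The shares of all probes there were 9.92% in either direction, 4.7% lower and 4.82% past adjustment. With vehicle 5 were called lower and 1 higher, with 0 past adjustment, against 4.81% of all probes in either direction and 2.29% lower. Several of these genes are also known from neutrophils and other leukocytes. Ms4a2, the beta chain of the IgE receptor, was well above background on 2 of the 16 arrays, both of them estrogen arrays, and Gata2, a regulator of mast cell genes, was well above background on all 16, between -3.0 and -1.81.

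On day 14, 4 of the 20 other mast cell genes tested were called higher in db/db than in WT, with 2 past adjustment. Of all probes, 18.0% were called there in either direction, 2.35% higher, and 13.6% passed adjustment. With estrogen 3 of the 20 were called lower than without treatment, with 0 past adjustment, against 3.91% of all probes in either direction. For db/db vs WT, Mrgprb1 (0.45), Mrgprb2 (-0.51), Tpsg1 (-0.55), Slc18a2 (-0.11) and Gata2 (0.30) were not called, by log2 fold change. Hdc was at 1.37 and 1.41 in WT, 2.82 and 3.46 in db/db, 1.00 and 1.44 with vehicle and 1.83 and 0.55 with estrogen. The untreated db/db arrays were thus the highest, without overlap. Among 11 growth and activating factors, 3 of the 10 tested were called higher in db/db than WT on day 7, namely Il4 (5.18-fold), the growth factor Tgfb1 (2.11-fold) and the kinase Syk (2.52-fold), and all 3 passed adjustment. This stands against 5.68% of all probes called higher and 9.08% past adjustment. Kitl, the stem cell factor that binds Kit, was called in none of the 8 comparisons and lay between -3.04 and -1.19 on the 16 arrays. Tslp, a keratinocyte cytokine, was called lower in db/db than WT on day 14 (5.44-fold; limma adjusted p = 0.00847).

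Of the members, 5 (Cma1, Mcpt1, Mcpt2, Mcpt4 and Mcpt8) lie on chromosome 14 among other serine protease genes. In RefSeq order, the genes with a probe from Cma1 to Gzmb number 17, and the list was drawn up after the values had been seen. On day 7, 8 of the 16 tested were called higher in db/db than WT, with 7 past adjustment, against 5.68% and 9.08% of all probes. On day 14, 6 of the 13 tested were called higher and 1 lower, with 6 past adjustment. Of all probes, 2.35% were called higher on day 14, 18.0% in either direction and 13.6% past adjustment. These counts include members. Of the genes called higher, Mcpt1, Mcpt2, Mcpt8 and Gzmd were each well above background on only 1 WT array of day 7. Gzmn was so on no WT array of either day, and Gzmd on no WT array of day 14. In those comparisons they were tested only through the db/db arrays, where they were high, and the filter left little room for the other direction. Without the members, 4 of the 11 tested were called higher on day 7, and 4 of the 9 tested higher and 1 lower on day 14. Beyond the members these were Ctsg, cathepsin G of neutrophils and mast cells (70.8-fold on day 7 and 14.3-fold on day 14), and the granzymes Gzme (11.8-fold and 37.2-fold), Gzmd (9.12-fold on day 7) and Gzmn, of which the last was not well above background in WT and at least 1.66-fold higher on day 7 and at least 12.2-fold higher on day 14. Gzmd was at least 5.57-fold higher on day 14. Gzmb, granzyme B, was 4.26-fold lower in db/db on day 14 (limma adjusted p = 0.0282).

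Genes with a probe on both sides of Mcpt2 differed less, and these differences were not tested against each other. Mcpt1, its neighbour on the side of Cma1, was 5.37-fold higher on day 7 and not well above background on day 14, Mcpt9, its neighbour on the side of Mcpt4, was well above background on 2 of the 16 arrays, and the neighbour after it, Mcpt4, was 2.01-fold and 2.58-fold higher and not called. Ctsg was, like Mcpt2, low on all 4 WT arrays, at -4.09, -4.41, -3.82 and -4.10, and higher on all 12 db/db arrays, between -0.58 and 2.71. With estrogen on day 7 Gzme was 44.5-fold lower than in db/db (limma adjusted p = 0.000766), and Ctsg was 2.69-fold lower (limma adjusted p = 0.107). The similar sequences of these genes mean that a probe can bind the transcript of a relative, and this was not tested.

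**Figure D4:**
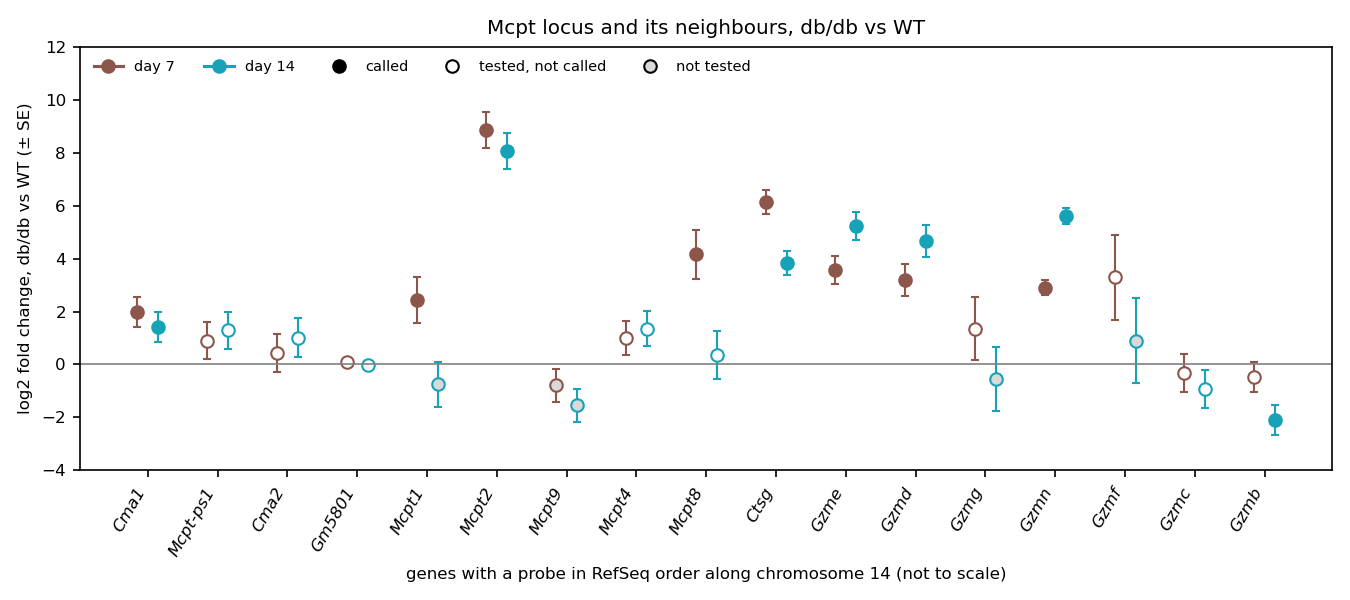
Log2 fold change of db/db vs WT (± SE) for 17 genes with a probe, in their order along chromosome 14 but not to scale, on day 7 (brown) and day 14 (blue); filled points were called, open points were tested and not called, and grey points were not tested. Mcpt2 has the highest points, and Mcpt4 and Mcpt9 on one side and Mcpt1 on the other lie below it.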

How the data were processed

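Per the labels, cyanine-3-labelled RNA of 16 wound samples was hybridised to Agilent 4 x 44K mouse arrays. In the deposited scanner files each spot has an intensity from which the authors subtracted background and spatial trends with Agilent Feature Extraction 11.0.1.1, without scaling between arrays, and median intensities of the spot and its surroundings, used for the normexp alternative. The authors also deposited a series matrix, a ratio per probe, which equalled the intensity over the 75th percentile of its array (within 0.1% for at least 99.4% of values). It is a linear scale, was an alternative only, and its 3 filters are not named.

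Control and outlier spots were left out, spots of a probe averaged, 96 of 39429 probes with outlier spots only were dropped, and log2 levels were scaled to the 75th percentile. RefSeq accessions named 69.5% of the probes. All 8 groups were fitted together with limma 3.58.1 in R 4.3.3, leaving 8 residual degrees of freedom. The study's methods name a moderated test, p under 0.05 and a fold change over 2. The functions were tested on simulated data. With 2 arrays a group the number of arrays limits the precision, and an exact permutation test could not go below p = 0.333. Normexp correction, quantile scaling, filters, a floor, the matrix, fewer arrays, slide and replicate blocks and left-out arrays were tried. Named genes are all members, the 5 most like Mcpt2 and Cpa3, and genes of the fixed lists. Genes, lists and tests were chosen with earlier results of these data known, and the chromosome 14 list and the other marker values named beside a result were picked from the fixed lists after their values were seen. Slide 1 held replicate 1 and slide 2 replicate 2 of every day 7 group, and the day 14 groups lay on slides 3 and 4. Both db/db arrays of day 14 lay on slide 3 and both WT arrays on slide 4. Replicate 1 of each treated group lay on slide 3 and replicate 2 on slide 4. Columns of comparisons made by the authors were not used.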

Additional observations from a re-analysis of the deposited data

Results flagged for a closer look

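These 4 differences between the labelled days were past an unadjusted limma p of 0.05 and a 2-fold change in a test of the difference itself, and 0 of them passed after adjustment over all probes. For Mcpt8 the db/db vs WT log2 fold change was larger on day 7 than on day 14 by 3.79 ± 1.29 (limma adjusted p = 0.223). For db/db + estrogen vs db/db it was -4.68 ± 1.29 (limma adjusted p = 0.248) and for db/db + vehicle vs db/db -4.61 ± 1.29 (limma adjusted p = 0.999). These 3 differences share the untreated db/db arrays of day 7, which stood higher than all other arrays for Mcpt8. For Kit the db/db + estrogen vs db/db + vehicle difference was 1.05 ± 0.42 (limma adjusted p = 0.397), with estrogen means of -0.83 on day 7 and -1.89 on day 14 and vehicle means of -1.85 on both. The labelled day and the slides cannot be told apart. Groups of 2 arrays were not searched for outlying samples.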

How the results depend on the processing

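The counts of members called were 6, 2, 3 and 1 on day 7 (db/db vs WT, estrogen vs db/db, vehicle vs db/db, estrogen vs vehicle) and 2, 0, 0 and 0 on day 14. After adjustment they were 3, 2, 0 and 0 on day 7 and 1 for db/db vs WT on day 14. Of all probes, 14.1%, 9.92%, 4.81% and 8.98% were called before adjustment on day 7, in the same order. On day 14 these shares were 18.0%, 3.91%, 7.52% and 0.979%. With normexp correction estrogen vs db/db gave 1 on day 7 and 1 on day 14, and estrogen vs vehicle gave 0 on day 7. For db/db vs WT it lost Mcpt1 on day 7 and gained Mcpt4 on day 14, and for vehicle vs db/db it lost Kit on day 7. The shares of all probes called with that correction were 9.69%, 6.22%, 3.05% and 5.23% on day 7, in the same order. On day 14 they were 8.72%, 1.93%, 4.12% and 0.387%. Requiring all 4 arrays well above background gave 3 for db/db vs WT and 0 for estrogen vs db/db on day 7, since fewer probes were tested. For vehicle vs db/db it lost Mcpt1 on day 7. In a fit of only the 4 arrays compared, estrogen vs vehicle gave 2 on day 7 and 1 on day 14, estrogen vs db/db gave 1 on day 14 and db/db vs WT gave 1 on day 14. On day 7 that fit lost Mcpt1 and Tpsb2 for db/db vs WT and gained Fcer1a for estrogen vs db/db. Its shares of all probes called were 12.8%, 10.4%, 4.36% and 9.77% on day 7, in the order above. On day 14 they were 18.0%, 3.8%, 9.87% and 0.982%. With slide as a block db/db vs WT gave 1 on day 14, against 18.0% of all probes. Over all probes 1817 then passed after adjustment, in place of 4099. Leaving out 1 array at a time, db/db vs WT gave 1 to 5 on day 14 and 4 to 6 on day 7, estrogen vs vehicle 0 to 2 on day 7 and 0 to 1 on day 14, vehicle vs db/db 2 to 3 on day 7, and estrogen vs db/db 0 to 1 on day 14. Where no value is given for it, the cause was not tested. Deviations of same-numbered arrays from their group means had correlations of -0.454 to 0.389 between groups, with no common sign. With the replicate block the counts were 6, 2, 3 and 1 on day 7 and 2, 0, 0 and 0 on day 14. The shares of all probes called were then 13.9%, 9.84%, 4.81% and 8.82% on day 7. On day 14 they were 17.8%, 3.78%, 7.49% and 1.04%. Of 1008 alternative values of single members, 27 lost and 14 gained a call, 0 of them turned direction with a call, and 47 that were not called changed sign. With quantile scaling the share of calls that were higher in db/db than WT went from 40.3% to 52.2% on day 7 and from 13.1% to 32.2% on day 14, and for estrogen vs db/db on day 14 from 65.4% to 53.3%, and with normexp for vehicle vs db/db on day 14 from 70.8% to 60.3%. Probes near background, here Mcpt1 and most Mcpt8 values, set the limit of what could be seen.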
